A study of Rattus norvegicus with 15 samples.

Results

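The choline-deficient rat diet was compared as a whole with the basal diet: 10 samples of diet tissue were set against 5 samples of control liver, and the question was what cirrhotic liver and tumour share against control. All 15 were liver RNA samples of male rats of the Fischer344 strain (1 control is labelled Fischer), fed for 70 weeks. The controls had a basal diet. The diet tissues came from rats on a choline-deficient, L-amino acid-defined diet, 5 of them hepatocellular carcinomas and 5 the noncancerous, cirrhotic liver around such tumours. The members were the 3440 probes, of 3757 on the array, with exactly 1 gene symbol in the platform annotation, which cover 3400 genes. No transgene or other agent is named for any group. The labels give separate samples but do not say that these are separate animals, nor whether a tumour and a cirrhotic liver of the same number share an animal, so p-values rest on the spread among these samples alone, which may be technical.

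Choline is needed to make phosphatidylcholine, the main phospholipid of membranes and of the shell of secreted lipoproteins. The liver can also make phosphatidylcholine by methylating phosphatidylethanolamine with S-adenosylmethionine, so a diet without choline draws on the methyl groups of methionine and folate. In rats such a diet is known to give fatty liver, then cell death and regeneration, scarring with cirrhosis, and in the end carcinoma, without an added carcinogen. The tissue is bulk, so that fewer cells of a type and less RNA per cell cannot be told apart.

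Each value is a ratio to the median of that probe across the arrays, quantile-normalized between arrays and put on the log2 scale, so that 0 is the probe's usual level and no gene's brightness can be compared with another's. A difference is the mean of the cirrhotic and carcinoma means, with equal weight, minus the control mean, with a 95% interval from limma. The number of arrays limited the precision: the median distance from a difference to the end of its interval was 1.10. Ratios at the lower limit of 0.01 were most frequent in control 1 (229 values) and noncancerous 1 (209), followed by control 3 (76), control 2 (65) and carcinoma 1 (33). Without absolute levels, the labelled tissues could not be checked by whether defining markers were present. Of the genes commonly used to mark scar or tumour, Col1a1, Col3a1, Acta2, Timp1, Afp and Gpc3 had pooled intervals that held 0, as given further on. In cirrhotic liver alone, Col1a1 differed from control by -1.11, Col3a1 by -1.34, Afp by -0.56 and Gpc3 by -0.18. Acta2 differed there by 0.0025 and Timp1 by 0.13.

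No probe passed an adjusted p of 0.05 between the diet tissues and control in limma (0 of 3757, 0.0%, smallest adjusted p = 0.647), and none passed with an exact permutation test over the 3003 ways to choose 5 of the 15 samples (smallest adjusted p = 0.604, two-sided). The smallest unadjusted p that this permutation test can give is 0.000333. After adjustment over all probes, a few probes alone could therefore not have passed it. At an unadjusted p under 0.05 in limma there were 277 of 3757 probes (7.37%). Among the 1-symbol probes there were 255 (7.41%), 103 of them higher in the diet tissues (2.99%) and 152 lower (4.42%). Without control 4 the lower count was 101. The split between directions depended on the scaling. The higher genes made up 40.4% of the unadjusted calls after quantile normalization, 51.2% with the values as deposited (129 higher, 123 lower) and 54.1% with each array divided by its median (138 higher, 117 lower). Those other scalings moved the median of all 1-symbol differences from 0.01 to 0.10 and 0.11. Over all 1-symbol probes the differences ran from -2.13 to 2.49, with the 5th percentile at -1.11 and the 95th at 1.0, and 1740 of 3440 (50.6%) lay above 0.

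Between the diet tissues no probe passed the adjusted threshold either. Carcinoma against cirrhotic liver had 497 of 3757 probes (13.2%) at an unadjusted p under 0.05, and the smallest adjusted p in limma was 0.224. Cirrhotic minus control and carcinoma minus control use the same 5 control samples, so their values are given side by side below, and their likeness is not evidence of a shared response.

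The differences followed the numbering of the probes on the array. From probe number 3200 upwards lay 640 of the 1-symbol probes (18.6%), and these held 116 of the 152 lower calls (76.3%) and 3 of the 103 higher calls (2.91%), with a median difference of -0.57. Below number 3200 there were 36 lower and 100 higher calls, and the median was 0.12. The number 3200 was chosen after the values were seen. In single samples, the median log2 ratio from number 3200 upwards lay between 0.02 and 0.51 in the controls, between -0.57 and -0.08 in cirrhotic liver and between -0.46 and 0.58 in carcinoma. Below number 1600 it was -0.59 in control 2, -0.46 in control 4 and -0.64 in both carcinoma 3 and carcinoma 4. Every other sample lay there between -0.03 and 0.41, so the low readings of that stretch cut across diet and tissue. Among numbers 3600 to 3799, 52 of 177 probes were lower (29.4%), with a median of -0.86, and among numbers 1200 to 1399, 23 of 167 were higher (13.8%), with a median of 0.42. With the running median over each probe and its 50 neighbours on each side taken out of every array, 98 probes were higher (2.85%) and 76 lower (2.21%), so that 56.3% were higher. Of the calls before that step, 64 higher and 49 lower ones were still at an unadjusted p under 0.05 after it. The part of the numbering in any gene's difference was not tested, and the value with the running median removed is given beside the pooled one and called detrended. Where an unadjusted p under 0.05 was lost or gained by that step, the text says call lost or call gained.

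**Figure D1:**
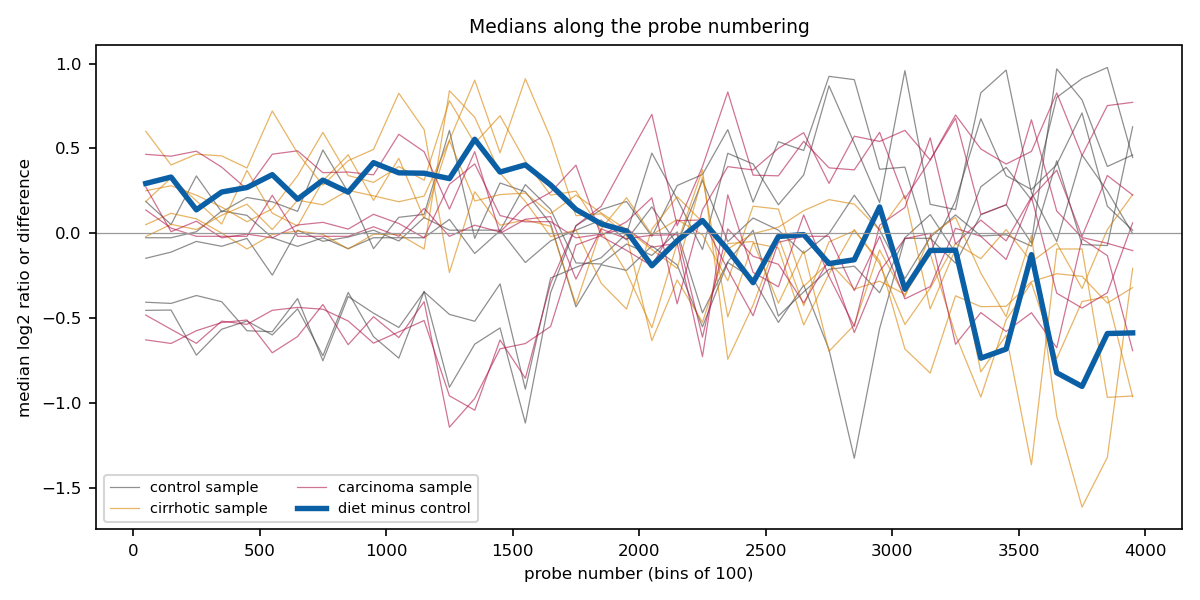
Median log2 ratio of each of the 15 samples in bins of 100 probe numbers (thin lines, coloured by group) and the median pooled difference of diet minus control (thick line), against probe number. The thick line lies above 0 over the low numbers and below it over the high ones, where the 640 probes from number 3200 have a median difference of -0.57.

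In no gene did all 10 diet samples lie above all 5 controls (0 of 3440, 0.0%), and in 4 all 10 lay below all 5 (0.116%): Lrp4, Dbp, Stmn1 and Mgat5. Of the 4, 3 lay from number 3200 upwards. With the running median removed, 1 gene lay below all controls and 1 above. The counts of 4 and 0 also moved when single samples were left out, which leaves fewer samples to overlap. The count of 4 became 24 without control 5, 9 without control 1 or without control 3, and 8 without control 2 or without noncancerous 3. The count of 0 became 4 without control 2, 3 without control 5, 2 without noncancerous 2 and 1 without control 4 or without noncancerous 5.

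Stmn1 encodes stathmin, which destabilizes microtubules and is usually high in dividing cells. Its normalized log2 ratios were 1.03, 1.21, 0.76, 0.92 and 0.92 in controls 1 to 5. They were -1.48, -0.97, -0.09, -2.94 and -0.80 in cirrhotic liver and -0.77, -0.51, 0.24, 0.51 and -0.14 in carcinoma. The controls formed a narrow band and every diet sample lay below it, with noncancerous 4 lowest and noncancerous 3 among the carcinomas. The pooled difference was -1.66 (-2.59 to -0.73, limma adjusted p = 0.647), with -2.22 for cirrhotic liver and -1.10 for carcinoma. Carcinoma minus cirrhotic was 1.12 (0.04 to 2.20). Detrended, it was -0.79 (-1.51 to -0.07), at probe number 3711.

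Mgat5 encodes the glycosyltransferase that starts a branch of complex N-glycans. Its values were 1.05, 0.62, 1.0, 3.17 and 0.40 in the controls, -0.87, -0.04, -1.20, -3.39 and 0.31 in cirrhotic liver, and -1.09, -1.25, 0.04, 0.25 and -0.99 in carcinoma. Control 4 stood well above the other controls, and the highest diet sample came close to the lowest control. The difference was -2.07 (-3.25 to -0.89, limma adjusted p = 0.647), -1.63 without control 4, and -1.48 (-2.51 to -0.45) detrended. It was -2.29 in cirrhotic liver and -1.85 in carcinoma.

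Dbp is a transcription factor whose messenger follows the time of day in liver. It read 0.20, 0.22, 0.31, 0.39 and 0.90 in the controls, -1.15, 0.15, -0.09, -1.92 and -0.32 in cirrhotic liver, and -1.34, 0.05, -1.97, -0.27 and -1.72 in carcinoma. Both diet groups spread widely below a tight control group. The difference was -1.26 (-2.40 to -0.13, limma adjusted p = 0.654), and detrended it was -0.46 (-1.38 to 0.46), an interval that held 0. The labels used here give no time of day for the samples.

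Lrp4, a receptor related to the low-density lipoprotein receptor that takes part in Wnt and agrin signalling, had control values of 0.38, 0.51, 0.35, 0.46 and 0.86. Its values were -2.46, 0.22, -0.09, -1.40 and -0.27 in cirrhotic liver and -3.88, -1.23, -0.06, -0.16 and 0.01 in carcinoma. The 2 lowest of these, noncancerous 1 and carcinoma 1, were at the table's lower limit, and 6 of the other 8 diet samples lay between -0.27 and 0.22. The difference was -1.44 (-2.80 to -0.09, limma adjusted p = 0.664), -1.07 without carcinoma 1. Lrp4 lies at probe number 1758, outside the high numbers, and its detrended difference was -1.57 (-2.79 to -0.35).

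**Figure D2:**
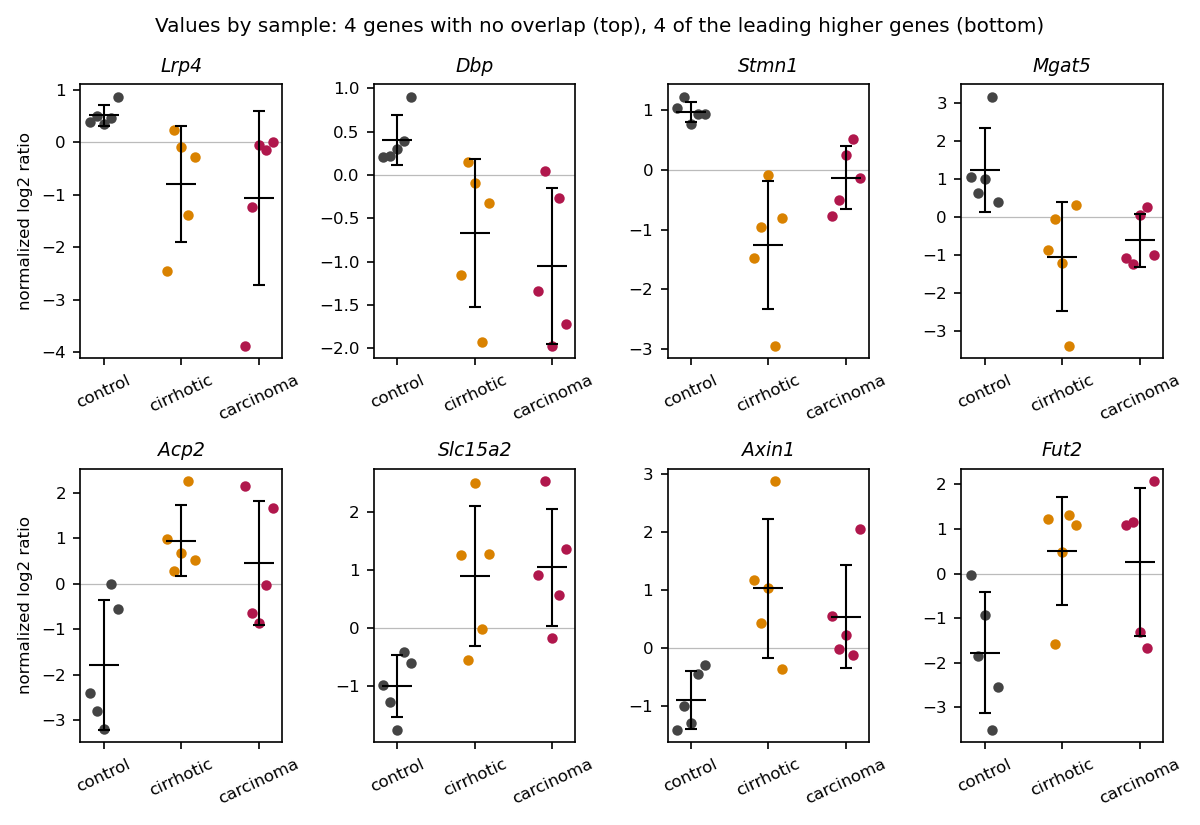
Normalized log2 ratio of 8 genes in each sample (points), with the group mean and SD (bars, n = 5 a group), the upper row holding the 4 genes without overlap and the lower row Acp2, Slc15a2, Axin1 and Fut2. In the upper row every diet sample lies below every control; in the lower row 7 of 10 (Acp2, Fut2) or 9 of 10 (Slc15a2, Axin1) diet samples lie above every control.

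The genes next described were chosen after their values were seen, as the 12 in each direction with the smallest unadjusted p. Their limma adjusted p-values lay between 0.647 and 0.654, so none passed. All 12 higher genes kept an unadjusted p under 0.05 when detrended and none lay from number 3200 upwards. Of the 12 lower genes 10 kept it, and 9 lay there. The interval of carcinoma minus cirrhotic held 0 for 11 of the 12 higher and 10 of the 12 lower genes, which does not show that the tissues were alike, since that interval was wider still, with a median distance of 1.27 to its end.

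Acp2, the lysosomal acid phosphatase, had the highest difference of all 1-symbol probes. The controls read -2.39, -2.79, -3.19, -0.002 and -0.56, with controls 1 and 3 at the lower limit. The diet samples ran from -0.86 to 2.26 with a median of 0.60, and 7 of 10 lay above every control. The difference was 2.49 (1.25 to 3.72), with 2.73 for cirrhotic liver and 2.24 for carcinoma, and 2.13 (0.99 to 3.27) detrended. As deposited it was 4.79. Without control 3 the normalized difference was 2.10, and without control 4 it was 3.01.

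Slc15a2, a proton-coupled carrier of small peptides, read -0.99, -1.27, -1.75, -0.41 and -0.61 in the controls and -0.55 to 2.53 (median 1.08) in the diet tissues. Only noncancerous 2 overlapped the controls. The difference was 1.97 (0.86 to 3.07), 1.89 in cirrhotic liver and 2.04 in carcinoma, and 1.72 (0.68 to 2.76) detrended. Axin1, a scaffold of the complex that marks beta-catenin for destruction, read -1.41, -1.0, -1.30, -0.45 and -0.29 in the controls and -0.36 to 2.89 (median 0.49) in the diet tissues, again with 9 of 10 above every control. It differed by 1.68 (0.63 to 2.72), 1.92 in cirrhotic liver and 1.43 in carcinoma, and by 1.60 detrended.

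Fut2, which adds the fucose that makes H antigen on secreted and surface glycans, read -0.03, -1.86, -0.92, -3.50 and -2.55 in the controls and -1.68 to 2.07 (median 1.09) in the diet tissues. Noncancerous 2, carcinoma 3 and carcinoma 4 lay among the controls. Its difference was 2.16 (0.71 to 3.60, detrended 1.86). Add2, a subunit of the membrane skeleton protein adducin, differed by 2.08 (1.01 to 3.14, detrended 1.63), while a second Add2 probe read 0.66. Faim2, an inhibitor of Fas-mediated death, differed by 1.99 (0.76 to 3.21, detrended 1.80), with 1.37 in cirrhotic liver and 2.61 in carcinoma.

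Plau, urokinase, which activates plasminogen, was the 1 higher gene of these 12 whose tissues differed by interval: it read 0.73 above control in cirrhotic liver and 2.65 in carcinoma, a gap of 1.92 (0.60 to 3.23). The pooled difference of 1.69 (0.55 to 2.83, detrended 1.40) is thus the mean of unlike values. The inward rectifier potassium channel gene Kcnj12 differed by 1.68 (0.58 to 2.79, detrended 1.38), and the B-lineage factor Ebf1 by 1.67 (0.44 to 2.90, detrended 1.41), or 1.13 without control 2, which was at the lower limit. Inppl1, a phosphatase that dampens insulin signalling, differed by 1.43 (0.45 to 2.40, detrended 1.28). The ribosomal protein gene Rps29 differed by 1.42 (0.42 to 2.41, detrended 1.18) and the zinc finger factor Zic1 by 1.35 (0.39 to 2.32, detrended 1.0).

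Of the lower genes, Mllt3, a reader of acetylated and crotonylated histones in transcription elongation, read 0.91, 2.07, 0.78, 1.85 and 0.34 in the controls. The diet tissues ran from -1.84 to 0.53 (median -0.80), and only noncancerous 3 reached into the control range. The difference was -1.85 (-2.80 to -0.90), -1.74 in cirrhotic liver and -1.96 in carcinoma, and -1.18 (-1.97 to -0.40) detrended. Stat6, the factor that carries signals of interleukin-4 and interleukin-13, read 0.36, 0.68, 2.36, 0.74 and 0.67 in the controls and -1.92 to 0.43 (median -0.43) in the diet tissues. Noncancerous 1 and noncancerous 2 overlapped the lowest control. It differed by -1.53 (-2.48 to -0.59), by -1.18 without control 3, and by -1.45 (-2.37 to -0.54) detrended, and it lies at number 2472, outside the high numbers.

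Pld2, a phospholipase that cleaves phosphatidylcholine to phosphatidic acid and choline, differed by -2.13 (-3.47 to -0.79) and by -1.41 detrended. Aldh3a1, an aldehyde dehydrogenase known to rise in chemically induced rat liver tumours, differed by -1.86 (-2.95 to -0.77), and by -1.30 without control 2 and -0.99 detrended. Got1, cytosolic aspartate aminotransferase, differed by -1.66 (-2.60 to -0.71) and by -0.78 detrended. Dnm1, a dynamin of vesicle fission in neurons, differed by -1.69 (-2.76 to -0.63, detrended -1.38), the odorant-binding protein gene Obp1f by -1.64 (-2.63 to -0.64) and the POU factor Pou3f3 by -1.61 (-2.59 to -0.63, detrended -0.97). Ifrd1, a transcription coregulator, differed by -1.56 (-2.48 to -0.65), and Sycp3, of the meiotic synaptonemal complex, by -1.40 (-2.28 to -0.52, detrended -1.26). Ifrd1 at -0.69 (-1.58 to 0.20) and Obp1f at -0.80 (-1.63 to 0.04) were the 2 whose detrended intervals held 0.

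**Figure D3:**
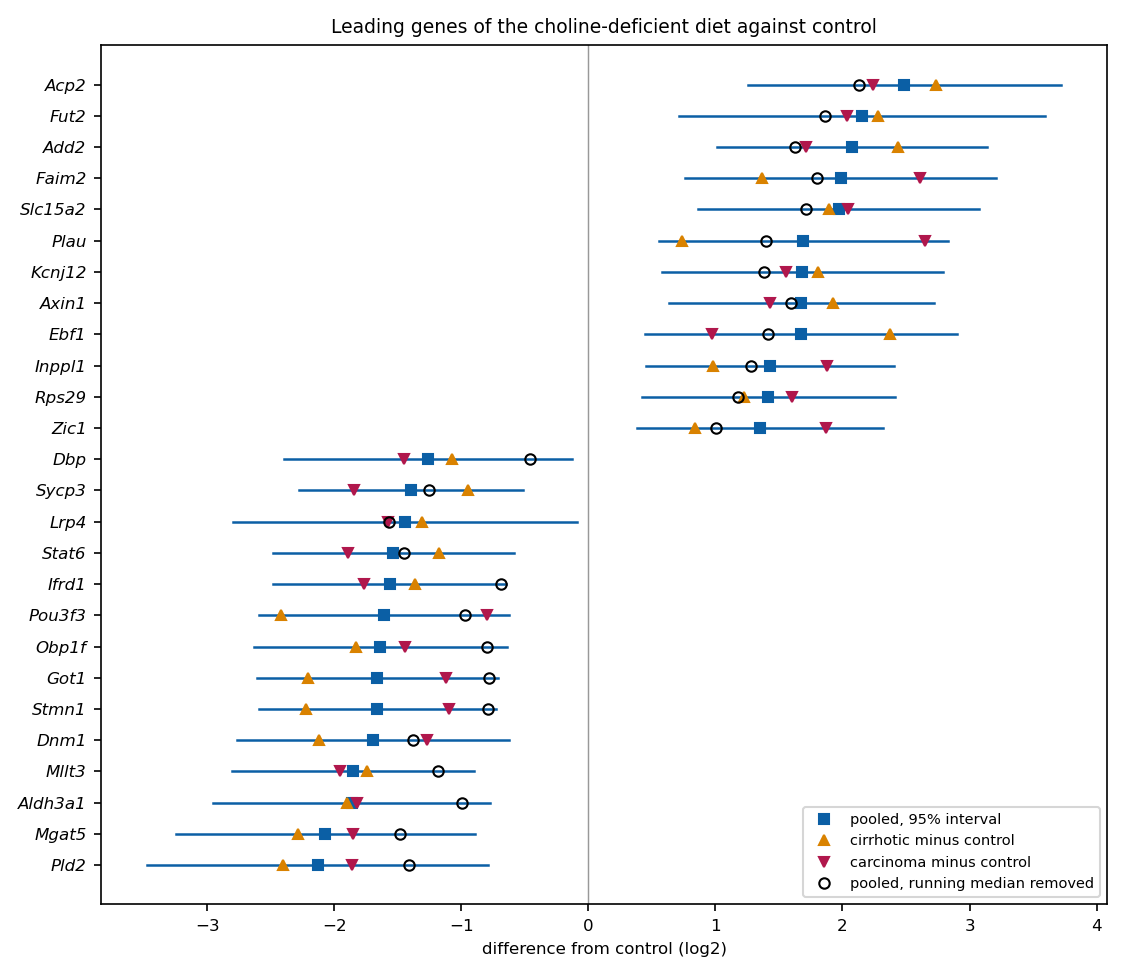
Difference from control on the log2 scale for the 12 higher genes, the 12 lower genes and the 4 without overlap (2 of which are among the 12 lower): pooled value with its 95% interval (squares), cirrhotic liver (up triangles), carcinoma (down triangles) and the pooled value with the running median removed (open circles). The open circles of most lower genes sit nearer to 0 than the squares, while those of the higher genes stay at 1.0 or above.

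The gene groups that follow were listed with earlier results of these data known, and each is described by counts and a median beside the median of 0.01 and the shares of 2.99% higher and 4.42% lower over all 1-symbol probes. Genes named for an unadjusted p under 0.05 did not pass the adjusted test in limma, nor did any other gene of these lists.

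Lysosomal genes had 18 measured members with a median difference of 0.53 (0.44 in cirrhotic liver, 0.41 in carcinoma, 0.36 detrended). Of these 13 lay above 0, 5 at an unadjusted p under 0.05, and 1 was lower. The 5 were Acp2, Gusb (beta-glucuronidase) at 1.71 (0.22 to 3.21, detrended 1.69), Lamp2 (a membrane protein of the lysosome needed in autophagy) at 1.38 (0.15 to 2.61, detrended 1.01, call lost), Ppt1 (a thioesterase that removes palmitate from proteins) at 1.30 (0.19 to 2.42, detrended 1.09) and Scarb2 (the receptor that brings glucocerebrosidase to lysosomes) at 0.87 (0.02 to 1.72, detrended 0.45, call lost). All 5 probes lie between numbers 1240 and 1421, and over all 1-symbol probes numbered 1200 to 1399 the median difference was 0.91 in cirrhotic liver and 0.03 in carcinoma. Of the 5, 3 kept an unadjusted p under 0.05 when detrended. Ppt1 and Scarb2 differed from control mainly in cirrhotic liver, at 2.29 and 1.73, against 0.32 and 0.00 in carcinoma. Without control 2 Gusb read 1.14, and without control 4 Ppt1 read 0.85. Cd63, a tetraspanin of late endosomes, was the lower member at -1.45 (-2.73 to -0.16), and -1.13 detrended, call lost. Ctsd, the protease cathepsin D, differed by 0.92 (-0.06 to 1.91, detrended 0.62) and Lamp1 by 0.59 (-0.62 to 1.80, detrended 0.10). Per sample, the mean of the 18 genes lay between -0.55 and -0.11 in the controls and between 0.01 and 0.53 in cirrhotic liver. In carcinoma it lay between -0.29 and 0.42, and carcinomas 3 and 4 fell within the control range. The median of all 1-symbol probes in the bins starting at numbers 1200 and 1300 was -0.96 and -1.04 in carcinoma 3. Carcinoma 4 read -1.14 and -0.97 there, control 2 -0.91 and -0.65, and control 4 -0.48 and -0.52. Every other sample lay there between -0.23 and 0.90, and the other carcinomas between -0.02 and 0.48. The part of these low readings in the mean of the 18 genes was not tested.

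Many lysosomal genes are known to be driven by TFEB and related factors, which bind E-boxes with the core CACGTG. In the 250 bases before the RefSeq start (assembly GRCr8), 14 of the 18 genes had a promoter in the table and 3 held this palindromic core, which reads alike on both strands: Lamp1 with 5 matches, Ctsd with 2 and Cd63 with 1. Of all 33469 promoters of that length 5.59% held it. Acp2, Gusb, Lamp2 and Scarb2, of the higher group, had no match in this window. Shown here are the gene with the highest difference and the one with the most matches, 5′ to 3′ on the gene's strand, with CACGTG in capitals. Acp2 lies on the plus strand at chr3:97631676-97631925 and Lamp1 on the minus strand at chr16:83075064-83075313. These letters are a description of the windows, and nothing about binding follows from them.
Acp2: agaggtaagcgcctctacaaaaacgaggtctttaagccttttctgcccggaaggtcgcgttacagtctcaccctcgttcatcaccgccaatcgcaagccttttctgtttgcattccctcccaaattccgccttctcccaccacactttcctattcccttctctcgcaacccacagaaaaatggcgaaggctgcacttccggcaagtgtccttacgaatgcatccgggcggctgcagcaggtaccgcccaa
Lamp1: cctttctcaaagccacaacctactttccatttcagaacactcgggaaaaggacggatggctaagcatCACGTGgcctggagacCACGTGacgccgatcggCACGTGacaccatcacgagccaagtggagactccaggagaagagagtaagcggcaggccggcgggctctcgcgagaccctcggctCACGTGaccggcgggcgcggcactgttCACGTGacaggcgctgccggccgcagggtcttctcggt

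Genes of choline, methionine and one-carbon metabolism had 24 measured members, a median of -0.14 (-0.37 in cirrhotic liver, 0.05 in carcinoma, -0.02 detrended), 9 above 0, none higher and 2 lower at an unadjusted p under 0.05. Pemt, which methylates phosphatidylethanolamine to phosphatidylcholine, read 1.11, 0.95, 0.34, 1.39 and 0.09 in the controls. The cirrhotic samples read -0.33, 0.02, -1.29, -1.23 and -0.64, all below every control, and the carcinomas 0.11, -0.10, -0.03, 0.47 and -0.75, of which carcinoma 1 and carcinoma 4 overlapped them. The difference was -1.15 (-1.97 to -0.34, limma adjusted p = 0.654, adjusted p from 0.338 to 0.925 over the alternatives), -1.47 in cirrhotic liver and -0.84 in carcinoma. At number 3795 it lies in the low-reading stretch, and the detrended difference was -0.57 (-1.24 to 0.09). Gamt, which makes creatine with a methyl group of S-adenosylmethionine, differed by -1.56 (-2.61 to -0.52), by -1.03 without control 4 and by -0.69 detrended, call lost. Bhmt, which remethylates homocysteine with betaine, differed by -1.02 (-2.36 to 0.31, detrended -1.0), Mat1a, the hepatic synthase of S-adenosylmethionine, by -0.60 (-1.64 to 0.45, detrended -0.27) and Gnmt, which disposes of surplus methyl groups, by -0.34 (-1.55 to 0.86, detrended 0.16). At the other end were Odc1, the first enzyme of polyamine synthesis, at 0.89 (-0.14 to 1.92, detrended 0.66), and the folate dehydrogenase gene Aldh1l1 at 0.90 (-0.26 to 2.07, detrended 0.40).

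Lipid genes were spread on both sides of 0. Fatty acid oxidation and ketogenesis had 36 members, a median of 0.02 (0.07 in cirrhotic liver, -0.18 in carcinoma, -0.01 detrended) and no unadjusted call, from Etfa, an electron carrier of beta-oxidation, at -1.14 (-2.87 to 0.60, detrended -0.59) to Acaa2, a mitochondrial thiolase, at 1.12 (-0.33 to 2.57, detrended 1.25). Lipid synthesis and storage had 18 members and a median of -0.06 (0.19 in cirrhotic liver, -0.24 in carcinoma, -0.11 detrended). Acly, which makes cytosolic acetyl-CoA, differed by -1.44 (-2.63 to -0.26) and -0.58 detrended, call lost, the lipogenic regulator Thrsp by -1.02 (-2.09 to 0.06) and -0.10 detrended, and malic enzyme Me1 by 1.07 (-0.05 to 2.20, detrended 0.70). Cholesterol, bile acid and lipoprotein genes had 34 members with a median of 0.35 (0.29 in cirrhotic liver, 0.12 in carcinoma, 0.22 detrended), and 23 lay above 0. Apoa1, the main protein of high-density lipoprotein, was the 1 unadjusted call at 1.60 (0.28 to 2.92, detrended 1.38), with 2.35 in cirrhotic liver and 0.85 in carcinoma. Fdps, of the mevalonate pathway, differed by 1.04 (-0.17 to 2.26, detrended 0.57), the bile acid receptor Nr1h4 by -0.51 (-1.43 to 0.41, detrended -0.37) and the cholesterol ester enzyme Soat1 by -0.67 (-1.78 to 0.44, detrended -0.16).

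Among sugar and amino acid genes, those of glucose uptake and glycolysis had 20 members with a median of 0.62 (0.72 in cirrhotic liver, 0.47 in carcinoma, 0.45 detrended). This median was the second highest of the 40 lists, and 17 members lay above 0. Tpi1, triosephosphate isomerase, differed by 1.67 (0.31 to 3.04, detrended 1.47) and by 1.19 without control 2, which with control 1 was at the lower limit. Eno1, enolase, read -1.32, -1.67, -1.62, 0.44 and -1.76 in the controls, 2.07, -2.13, -0.76, -1.38 and 0.25 in cirrhotic liver, and 1.44, 2.98, 0.28, 0.14 and 1.39 in carcinoma. Its difference of 1.61 (0.35 to 2.87, detrended 1.78) was held more by carcinoma (2.43) than by cirrhotic liver (0.80), a gap of 1.63 (0.18 to 3.09). Pfkfb3, a regulator of glycolytic flux, differed by -0.73 (-1.77 to 0.30, detrended -0.16) and the glucose carrier Slc2a4 by -0.26 (-1.14 to 0.61, detrended -0.04). The means of the 20 genes overlapped between groups, from -1.27 to 0.08 in the controls, -0.75 to 0.48 in cirrhotic liver and -0.78 to 0.79 in carcinoma.

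Amino acid, urea and gluconeogenic enzymes had 32 members with a median of -0.19 (-0.31 in cirrhotic liver, -0.07 in carcinoma), which was 0.00 as deposited and 0.01 detrended. At an unadjusted p under 0.05, 1 was higher and 4 were lower, and 2 lower ones were left when detrended. G6pc1, the catalytic subunit of glucose-6-phosphatase, read 0.75, 0.98, 1.10, -0.05 and 1.86 in the controls, -1.76, 2.21, 0.45, -2.92 and -0.84 in cirrhotic liver, and -1.65, -0.42, -0.86, 0.35 and -3.03 in carcinoma. Noncancerous 2 lay above every control and 7 of 10 diet samples below all of them. The difference was -1.78 (-3.19 to -0.37) and -1.39 (-2.71 to -0.08) detrended. The liver glycogen synthase gene Gys2 differed by -1.65 (-3.03 to -0.27) and serine dehydratase, Sds, by -1.48 (-2.57 to -0.39), with -0.77 and -0.65 detrended, both calls lost. Hal, histidine ammonia-lyase, was the higher one at 1.29 (0.21 to 2.38, detrended 0.76, call lost), mainly in cirrhotic liver (1.99 against 0.59). The urea cycle genes Cps1 at 0.63 (-0.30 to 1.57, detrended 0.57) and Otc at 0.76 (-0.58 to 2.10, detrended 0.75) did not pass, and Otc went opposite ways in the tissues, 2.28 in cirrhotic liver and -0.76 in carcinoma. Agxt, which detoxifies glyoxylate, differed by 1.11 (-0.19 to 2.40, detrended 0.61).

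The cytochrome P450 genes (38 members) had a median of -0.01, made of 0.27 in cirrhotic liver and -0.25 in carcinoma, and -0.21 detrended. The male-specific Cyp2c11 differed by -0.99 (-2.05 to 0.06, detrended -1.25, call gained), -0.90 in cirrhotic liver and -1.09 in carcinoma, and Cyp3a18 by -1.09 (-2.42 to 0.23, detrended -1.0). Cyp3a2 differed by -1.01 (-2.35 to 0.34, detrended -0.99), made of 0.33 in cirrhotic liver and -2.34 in carcinoma. The olfactory P450 gene Cyp2g1 was the unadjusted call at 1.02 (0.07 to 1.96, detrended 0.56, call lost). Conjugation enzymes (24 members) had a median of -0.12 (0.14 in cirrhotic liver, -0.12 in carcinoma, -0.13 detrended), and the arylamine acetyltransferase gene Nat1 differed by 1.07 (0.13 to 2.01, detrended 0.86, call lost). Antioxidant genes (28 members) had a median of -0.15, of -0.41 in cirrhotic liver, -0.00 in carcinoma and -0.12 detrended, with 2 higher and 2 lower; without control 5 the median was -0.33. The higher 2 were the epoxide hydrolase gene Ephx1 at 1.01 (0.06 to 1.96, detrended 0.65, call lost) and the mitochondrial thioredoxin reductase gene Txnrd2 at 0.93 (0.00 to 1.87, detrended 0.97). The lower 2 were heme oxygenase, Hmox1, at -1.19 (-2.12 to -0.27) and the manganese superoxide dismutase gene Sod2 at -1.17 (-2.22 to -0.11), which read -0.39 and -0.71 detrended, with intervals that held 0.

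Plasma proteins had 35 members and a median of 0.08, made of -0.38 in cirrhotic liver and 0.39 in carcinoma, and 0.31 detrended. Itih4, an acute phase protein, differed by 1.04 (0.03 to 2.05, detrended 1.13) and Masp2, a protease of the lectin pathway of complement, by -1.41 (-2.56 to -0.25, detrended -0.90, call lost). Alb, albumin, differed by 1.02 (-1.01 to 3.06, detrended 1.17), and the fibrinogen chain gene Fgg by 1.11 (-0.20 to 2.42, detrended 1.88, call gained), with -0.58 in cirrhotic liver and 2.80 in carcinoma. The 8 hepatocyte markers had the highest median of the lists, 0.93 (0.60 in cirrhotic liver, 1.0 in carcinoma, 0.76 detrended), with 6 above 0. Their mean per sample spread over all groups, from -1.75 to 0.13 in the controls, -2.05 to 1.71 in cirrhotic liver and -0.31 to 1.39 in carcinoma. Ttr, transthyretin, was the lowest at -0.57 (-1.98 to 0.84), and 0.31 detrended.

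Scar genes lay on both sides of 0, with no gene past the test. Collagens, laminins and other matrix proteins had 32 members and a median of -0.26 (-0.26 in cirrhotic liver, -0.01 in carcinoma, -0.03 detrended), with 2 lower and no higher call. The type I collagen gene Col1a1 had a difference of -0.55 (-1.51 to 0.40), with -1.11 in cirrhotic liver, 0.01 in carcinoma and 0.02 detrended. Col3a1 differed by -0.38 (-1.32 to 0.57, detrended -0.14), -1.34 in cirrhotic liver and 0.59 in carcinoma. The lower calls were Col5a2 at -1.27 (-2.16 to -0.39), or -0.72 detrended, and the cartilage proteoglycan gene Acan at -1.22 (-2.18 to -0.27), or -0.39 detrended, call lost, and Col18a1 differed by 0.96 (-0.15 to 2.07, detrended 0.92, call gained). Stellate cell and myofibroblast markers (8 members) had a median of -0.20 (-0.49 in cirrhotic liver, 0.12 in carcinoma, 0.01 detrended). Acta2, the actin of activated stellate cells, differed by 0.12 (-0.92 to 1.16, detrended 0.11), a sign that turned with the scaling (-0.02 as deposited), Timp1, an inhibitor of matrix proteases, by 0.23 (-0.57 to 1.04, detrended 0.03), and Vim by -0.96 (-1.92 to -0.01, detrended -0.63, call lost).

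Growth factors of scarring (33 members) had a median of 0.04 (0.24 in cirrhotic liver, -0.11 in carcinoma, -0.14 detrended). Tgfb1 differed by 0.58 (-1.0 to 2.16, detrended 0.29). The platelet-derived growth factor receptor gene Pdgfra differed by 1.13 (0.17 to 2.09, detrended 0.90) and the co-receptor gene Tgfbr3 by 1.07 (0.07 to 2.07, detrended 0.87), both more in cirrhotic liver (1.77 and 1.57) than in carcinoma (0.48 and 0.57), while Bmp6, a ligand that controls hepcidin, differed by -1.18 (-2.16 to -0.19, detrended -0.84, call lost). Matrix proteases and inhibitors (31 members) had a median of 0.05 (0.13 in cirrhotic liver, 0.16 in carcinoma, 0.05 detrended), with Plau above and the neutrophil collagenase gene Mmp8 below at -0.97 (-1.90 to -0.03), or -0.31 detrended, call lost. Mmp9 differed by -1.06 (-2.39 to 0.26, detrended -0.95).

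Markers of preneoplastic foci and fetal liver had 23 members, a median of 0.08 (0.35 in cirrhotic liver, 0.12 in carcinoma, -0.01 detrended) and 13 above 0, with 2 higher and 2 lower calls. Akr7a3, an aflatoxin aldehyde reductase, differed by 1.30 (0.03 to 2.57, detrended 0.95, call lost) and Ephx1 as above, while Aldh3a1 and Prom1, a stem cell surface marker at -1.28 (-2.37 to -0.19, detrended -0.62, call lost), lay on the other side. Gstp1, the classical marker enzyme of rat foci, differed by 0.38 (-0.83 to 1.59, detrended 0.09) and Ggt1, another, by 0.47 (-0.44 to 1.38, detrended 0.02). Afp differed by -0.22 (-1.10 to 0.66, detrended -0.09), Gpc3 by -0.55 (-2.28 to 1.19, detrended -0.74) and Igf2 by 0.08 (-0.80 to 0.95), or -0.12 detrended. Spp1, osteopontin, differed by -0.44 (-1.50 to 0.62, detrended -0.50). Of 20 markers of choline metabolism, liver function, scar and tumour that were always to be named, 10 lay above and 10 below 0, limma adjusted p-values lay between 0.654 and 0.979, and Pemt was the 1 with an unadjusted p under 0.05.

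Cell cycle genes had 27 members with a median of 0.08, made of 0.46 in cirrhotic liver and -0.31 in carcinoma, and -0.12 detrended, and Stmn1 was the 1 call. Cyclin D1, Ccnd1, differed by 0.57 (-0.63 to 1.77, detrended 0.31), 1.29 in cirrhotic liver and -0.15 in carcinoma, and the cyclin gene Ccnd3 by 1.02 (-0.08 to 2.11, detrended 0.76), 2.03 and 0.01. Apoptosis regulators (22 members) had a median of 0.06 (0.33 in cirrhotic liver, -0.17 in carcinoma, -0.09 detrended), or -0.12 without control 1, with Casp9, the initiator caspase of the mitochondrial route, at -1.30 (-2.39 to -0.22, detrended -0.65, call lost) and its upstream partner Bid at -1.07 (-2.17 to 0.03, detrended -0.39).

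The insulin-like growth factor and growth hormone axis had 21 members, of which 19 lay above 0, with a median of 0.32 (0.44 in cirrhotic liver, 0.30 in carcinoma, 0.19 detrended). Igfbp5, a binding protein that holds these growth factors in the matrix, read -0.03, -0.71, -1.10, -1.26 and -0.87 in the controls, 1.42, -0.95, -1.05, 2.07 and -0.94 in cirrhotic liver, and 0.70, 0.98, 2.41, 0.45 and 2.26 in carcinoma. All carcinomas and noncancerous 1 and 4 lay above every control, and the other cirrhotic samples lay among them. The difference was 1.53 (0.40 to 2.66) and 1.32 detrended. Igf2r, the receptor that clears insulin-like growth factor 2 and sorts lysosomal enzymes, differed by 1.0 (0.12 to 1.88, detrended 0.80), 1.24 in cirrhotic liver and 0.75 in carcinoma. The mean of the 21 genes, not detrended, lay between -0.47 and -0.07 in the controls and between 0.21 and 0.29 in cirrhotic liver, without overlap. In carcinoma it lay between -0.40 and 0.41, with only carcinomas 3 and 4 within the control range.

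**Figure D4:**
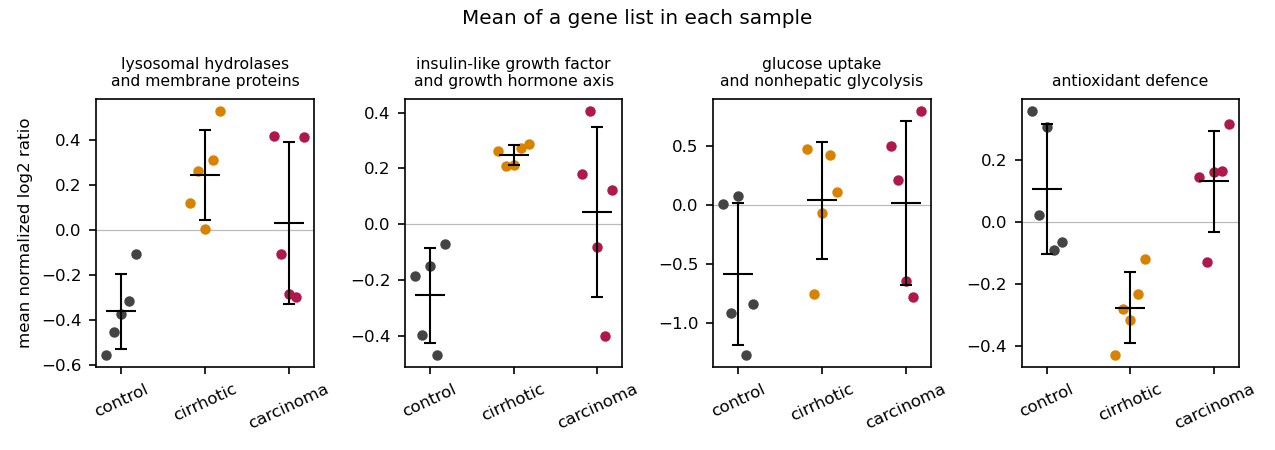
Mean normalized log2 ratio of 4 gene lists in each sample (points), with the group mean and SD (bars, n = 5 a group). Lysosomal and growth hormone axis means of all cirrhotic samples lie above all controls while carcinomas overlap them, and glycolysis overlaps throughout. In each of these lists carcinomas 3 and 4 are the only carcinomas within the control range. Together with controls 2 and 4, they also had low medians over the probes below number 1600 (-0.64 to -0.46). The part of that pattern in the list means was not tested. Antioxidant means of cirrhotic liver, from -0.43 to -0.12, lie below those of all controls. Among the 40 lists, only the lysosomal, growth hormone axis and antioxidant ones separate cirrhotic liver from control in this way. The means are not detrended.

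Among immune genes, cytokines, chemokines and their receptors had 66 members, a median of 0.05 (0.25 in cirrhotic liver, -0.20 in carcinoma, -0.04 detrended), 1 higher and 5 lower calls. Ccl2, which draws monocytes, differed by 1.05 (0.02 to 2.08, detrended 1.10). The lower 5 were Il1rn, the interleukin-1 receptor antagonist, at -1.59 (-2.90 to -0.28), Il24 at -1.42 (-2.42 to -0.42), the eosinophil growth factor Il5 at -1.29 (-2.27 to -0.31), the eosinophil attractant Ccl11 at -1.20 (-2.23 to -0.17) and the receptor subunit Il1rap at -1.07 (-2.07 to -0.08). Detrended, Il1rn, Ccl11, Il1rap, Il24 and Il5 read -1.07, -1.17, -0.88, -0.75 and -0.65, and the calls of Il1rn, Il24 and Il5 were lost.

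Antigen presentation (13 members) had a median of 0.05 (-0.04 in cirrhotic liver, 0.17 in carcinoma, 0.06 detrended). Tap1, which pumps peptides to class I molecules, had the lowest difference of all 1-symbol probes, -2.13 (-3.89 to -0.38, detrended -2.41), made of -3.85 in carcinoma and -0.42 in cirrhotic liver, a gap of -3.43 (-5.46 to -1.41), with carcinomas 2 and 3 at the lower limit. The proteasome activator gene Psme2 differed by 1.19 (0.03 to 2.35, detrended 1.17), made of 2.21 in carcinoma and 0.17 in cirrhotic liver, and B2m, the light chain of class I molecules, differed by 1.33 (-0.12 to 2.77, detrended 1.05).

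Markers of other cell types gave these values. Of 6 T or NK cell markers 4 lay above 0, with a median of 0.50 (0.75 in cirrhotic liver, 0.19 in carcinoma, 0.43 detrended). Prf1, perforin, differed by 1.12 (0.12 to 2.12, detrended 0.67, call lost), Cd28 by 1.45 (-0.38 to 3.29, detrended 1.18) and Cd3d by -0.51 (-1.39 to 0.38, detrended -0.23). Of 10 macrophage markers listed only 3 were measured. All 3 lay above 0, none at an unadjusted p under 0.05, with a median of 0.44 (0.26 in cirrhotic liver, 0.66 in carcinoma, 0.38 detrended). Csf1r was highest at 1.01 (-0.57 to 2.58, detrended 0.72). Cholangiocyte or progenitor markers (6 members) had a median of -0.14 (0.11 in cirrhotic liver, -0.38 in carcinoma, -0.11 detrended), from Prom1 to Krt8 at 1.01 (-0.44 to 2.45, detrended 0.57), with Epcam at -0.81 (-1.67 to 0.06, detrended -0.17). Endothelial markers (5 members) had a median of 0.26, made of 0.94 in cirrhotic liver and -0.19 in carcinoma, and 0.01 detrended. Of these 3 lay above 0 and 2 below, and the highest differed by 0.64 (detrended 0.46). Vwf was lowest and the 1 call at -1.21 (-2.18 to -0.23), or -0.65 detrended, call lost. Mast cell markers (4 members) had a median of 0.20, made of 0.77 in cirrhotic liver and -0.71 in carcinoma, and 0.01 detrended. Above 0 lay 2 of them and below it 2, from carboxypeptidase A3, Cpa3, at -1.06 (-2.15 to 0.04, detrended -0.95) to a highest member at 0.59 (detrended 0.33). The part of any cell type in the differences above was not tested.

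Ribosomal protein genes (42 members) had a median of 0.52, of 0.08 in cirrhotic liver and 0.65 in carcinoma, and 0.42 detrended, and 29 lay above 0. Rps29 and Rps26, at 0.90 (0.03 to 1.78, detrended 1.02), were the higher calls and Rpl39, at -1.69 (-2.98 to -0.40, detrended -1.56), the lower one, which read -0.97 without control 5. Rpl12 differed by 1.31 (-0.17 to 2.79, detrended 1.12). The respiratory chain (24 members) had a median of 0.20 (0.20 in cirrhotic liver, 0.18 in carcinoma, -0.07 detrended), and no call, with Atp5po lowest at -1.57 (-3.54 to 0.39, detrended -1.26). Heat shock and immediate early genes (37 members) had a median of 0.06 (0.15 in cirrhotic liver, -0.04 in carcinoma, 0.0033 detrended) and no call, with Hspbp1 lowest at -1.47 (-3.08 to 0.15, detrended -1.39).

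Liver transcription factors and nuclear receptors (33 members) had a median of 0.09, of -0.09 in cirrhotic liver and 0.30 in carcinoma, and 0.16 detrended, with Dbp below and Cebpb above. Cebpb, a factor of the acute phase and of regeneration, differed by 1.44 (0.04 to 2.84), with 8 of 10 diet samples above every control and 1 below, and by 0.91 (-0.27 to 2.10) detrended. Its relative Cebpd differed by 1.34 (-0.43 to 3.11, detrended 0.92) and the pioneer factor Foxa1 by -0.91 (-2.06 to 0.24, detrended -0.59). Neuronal synapse and channel genes, which liver is not known for, were the largest list with 153 members, a median of 0.04 (0.18 in cirrhotic liver, -0.02 in carcinoma, -0.03 detrended), and 7 higher and 3 lower calls. They included the potassium channel genes Kcnj12, Kcna6 at 1.30 (0.34 to 2.27, detrended 1.01) and Kcnab1 at 1.58 (0.14 to 3.03, detrended 1.82), the synapsin gene Syn2 at 1.78 (0.30 to 3.27, detrended 1.58) and the nicotinic receptor subunit gene Chrnb4 at -1.14 (-2.04 to -0.23, detrended -1.02). Syn2 rested on control 4, without which it read 0.64.

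**Figure D5:**
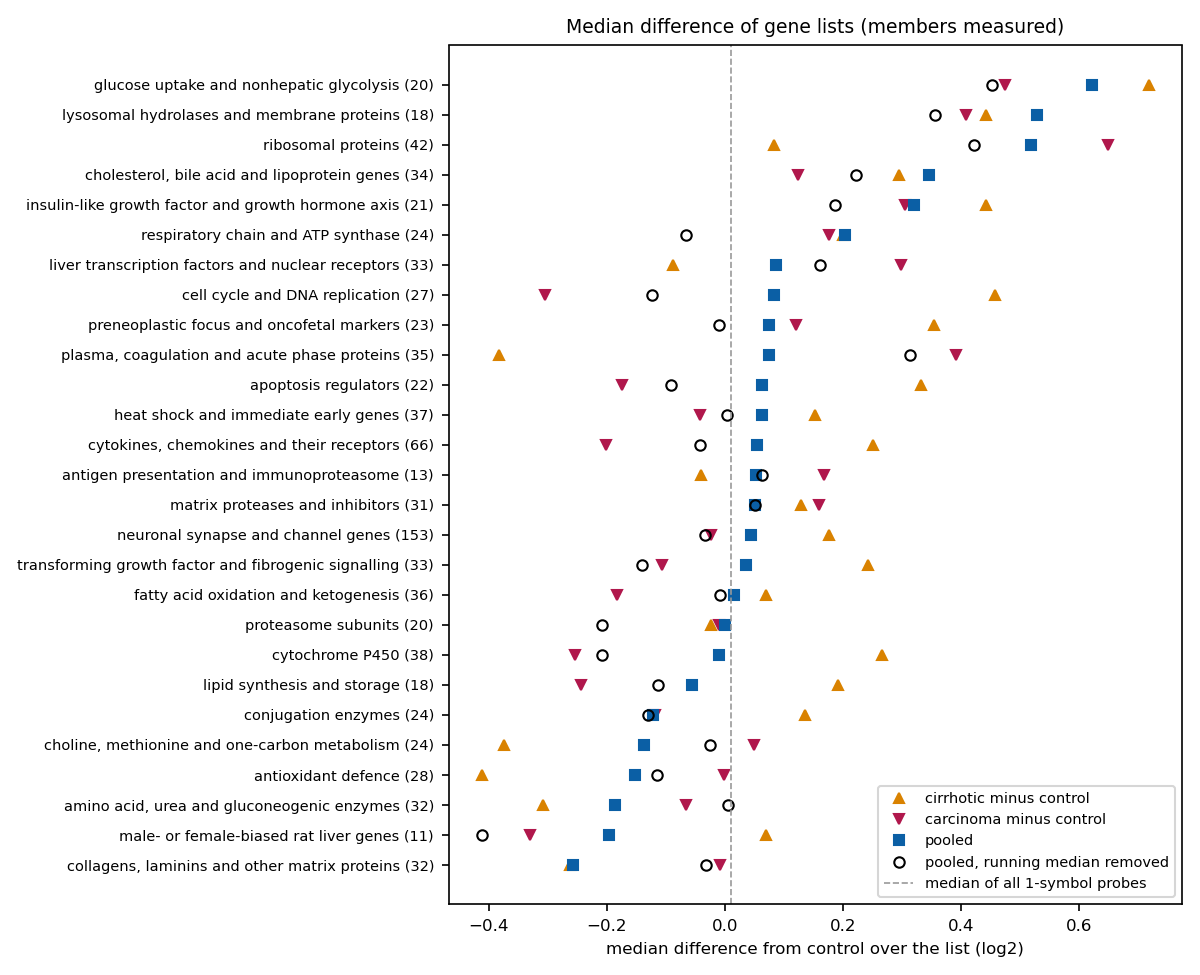
Median log2 difference from control over the measured members of each gene list with more than 10 of them (number in brackets): pooled (squares), cirrhotic liver (up triangles), carcinoma (down triangles) and pooled with the running median removed (open circles), with the median of all 1-symbol probes as a dashed line. Glycolysis (0.62), lysosomal (0.53) and ribosomal protein genes (0.52) lie furthest above 0, and matrix proteins furthest below, at -0.26 pooled and -0.03 with the running median removed.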

How the data were processed

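Liver RNA of 15 rat samples was measured on arrays. The deposited values are a linear ratio that the authors had divided by each probe's median over the 15 arrays, as seen from the file itself: in 3757 of 3757 probes that median was 1 within 1e-06. The kind of array and how it was scanned and corrected is not given in the sources used here. Array medians lay between 0.919 and 1.02, and trimmed array means differed by 1.49 times, and quantile normalization between arrays was therefore applied before taking log2. No filter was applied.

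A linear model with 3 groups (12 residual degrees of freedom) was fitted in limma 3.58.1 (R 4.3.3; lmFit, then eBayes with trend). The contrast was the mean of both diet tissues minus control, two-sided, with Benjamini-Hochberg adjustment over 3757 probes and a threshold of 0.05. The fit was tested on simulated data. Of 3440 probes with 1 symbol, 3429 matched the RefSeq table of GRCr8 by gene identifier, 4 probes had several symbols and 313 none; 38 genes had more than 1 probe and were given by the one with the smallest spread within groups. Promoter sequences are RefSeq's. Figures were drawn with Python 3.11.15 and matplotlib 3.10.9.

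The members and gene lists were chosen with earlier results of these data known. The rule named genes past the adjusted threshold, genes without overlap, 22 marker genes (20 measured) and up to 4 extreme members of a list. Other named genes were chosen after their values were seen. Alternatives were the values as deposited, arrays divided by their median, a floor at the 10th percentile, a pseudocount of 0.1, other models and tests, the running median removed, the replicate number as a block, and each sample left out in turn.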

Additional observations from a re-analysis of the deposited data

Results flagged for a closer look

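In groups of 5, a sample was set apart when its gap to the nearest other sample took up most of the group's range (Dixon's criterion). Of 393 groups of the 131 genes named, 23 (5.85%) had such a sample, and chance gives about 1 in 20. All values are normalized log2 ratios.

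Control 4 stood above the other controls in Col5a2 (2.38), Eno1 (0.44), Mgat5 (3.17) and Vwf (3.0), and below them in Syn2 (-5.81). Control 2 stood above in Aldh3a1 (3.47), control 3 in Stat6 (2.36) and control 5 in Dbp (0.90), and control 5 stood below in Il1rap (-0.74). Of the cirrhotic samples, noncancerous 1 stood apart in Ccnd1 (2.67), Foxa1 (-2.46) and Ggt1 (-0.043), noncancerous 2 in Cd28 (2.41) and Fut2 (-1.57), noncancerous 3 in Cyp2g1 (2.46), Gys2 (1.55) and Hspbp1 (3.55), and noncancerous 4 in Got1 (-2.88) and Vim (-2.40). Of the carcinomas, carcinoma 1 stood apart in Casp9 (-2.81), carcinoma 4 in Bid (2.10) and Cd28 (-6.29), and carcinoma 5 in Obp1f (-2.02).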

How the results depend on the processing

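In all 29 alternatives, 15 of which left out 1 sample, 0 probes passed the adjusted threshold in limma or the exact permutation test, and the lowest adjusted p of a named gene was 0.184. Of 131 named genes 125 kept their direction throughout. The lower calls at an unadjusted p under 0.05 became 76 with the running median along the numbering removed, and ran from 101 to 207 without 1 sample. The higher calls became 68 without control 1 and noncancerous 1 together, and ran from 71 to 130 without 1 sample. Genes with all diet samples below all controls became 9 without those 2 samples, 1 with the running median removed and 35 with same-numbered diet samples averaged, and ran from 4 to 24 without 1 sample; genes above became 1 with the running median removed and 17 when averaged, and ran from 0 to 4 without 1 sample. The cause was not tested, except that averaging or leaving out samples leaves fewer samples to overlap.

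Of the named genes 6 changed sign. Acta2 read -0.0049 with arrays divided by their median, -0.038 with the floor and -0.016 as deposited, and -0.37 to 0.41 without 1 sample. With the running median removed Col1a1 read 0.019, Gnmt 0.16, Igf2 -0.12 and Ttr 0.31; without control 1 and noncancerous 1 Gnmt read 0.012 and Gpc3 0.26; as deposited Igf2 read -0.0024, and without 1 sample it read -0.094 to 0.29. Without 1 sample Ttr read -0.99 to 0.011. Of 1160 list medians 7 moved beyond the spread between samples.

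Whether the replicate numbers pair the samples could not be decided, since 5 such correlations are too few. Same-numbered cirrhotic and carcinoma samples correlated from -0.24 to 0.39 in their deviations from the group means. Of the 5 cirrhotic samples, 2 correlated best with the carcinoma of their own number. Same-numbered samples of different diets correlated from -0.14 to 0.32 (control and cirrhotic liver) and from -0.34 to 0.22 (control and carcinoma). Control 1 correlated best with the cirrhotic sample of its own number, and control 2 with the carcinoma of its own number. With the replicate block 92 genes were higher and 145 lower, with 0 probes past the adjusted threshold. Precision is limited by 5 arrays a group and by 657 ratios at the lower limit.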
